A study of Homo sapiens with 9 samples.

Results

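The levels of 6 genes were compared across MDA-MB-231 cultures that carried MEL-18 T334A, MEL-18 WT or an empty vector. ITM2A, GLB1L2, C2CD4C and SBK1 had been picked for high levels, and SUSD2 and AGR2 for low levels, in MEL-18 WT cells against the vector. All 6 were among the 14738 genes tested, out of 26364 in the files. The genes were thus chosen by their counts in the MEL-18 WT and vector libraries, and their values in that contrast are given as a description. The same holds for MEL-18 T334A against the vector, which shares the vector libraries. The direct difference between MEL-18 T334A and MEL-18 WT is given with p-values, but it shares the MEL-18 WT libraries with the choice, so that these p-values are not independent of how the genes were picked. MDA-MB-231 is a triple-negative human breast adenocarcinoma line. Every group was infected with a pLVX lentivirus, and the group names give its insert: MEL-18 with alanine in place of the threonine named in T334A, which removes a phosphorylation site, MEL-18 in its wild-type form, or none. Each group had 3 libraries of poly(A) RNA, from cells kept for 48 h in DMEM with 10% FBS. The labels name these libraries biological replicates without saying whether they came from separate infections or clones, so the p-values cover the spread of these cultures alone, which may be technical, and the effect of a construct and of its infected line cannot be told apart. These are bulk samples, in which fewer cells expressing a gene and less RNA per cell cannot be told apart.

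MEL-18, the product of PCGF2, is a RING finger protein of the Polycomb repressive complex PRC1, which ubiquitinates histones and compacts chromatin at silent genes. The 6 genes encode unrelated proteins. ITM2A is a type II membrane protein with a BRICHOS domain, a fold that acts as a chaperone during passage through the secretory pathway. GLB1L2 belongs to the glycosidase family of the lysosomal beta-galactosidase GLB1. C2CD4C carries a C2 domain, a module that in many proteins binds calcium and lipid. SBK1 is a serine/threonine kinase named for binding SH3 domains. SUSD2 is a membrane protein of the cell surface with a sushi domain and a known partner, galectin-1. AGR2 is a protein disulfide isomerase of the endoplasmic reticulum, needed for mucin production in the mouse intestine and abundant in estrogen receptor-positive breast tumours.

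The upstream stretches below show the base composition of ITM2A, C2CD4C and AGR2. The set of RefSeq promoter windows used here (build GRCh38.p14) held 3 of the 6 genes and lacked GLB1L2, SBK1 and SUSD2. Shown are the 250 bases before the annotated start of each of the 3, in the direction of transcription, with each CG pair in capitals. They lie on the minus strand at chrX:79367335-79367584, chr19:409148-409397 and chr7:16805000-16805249.
ITM2A: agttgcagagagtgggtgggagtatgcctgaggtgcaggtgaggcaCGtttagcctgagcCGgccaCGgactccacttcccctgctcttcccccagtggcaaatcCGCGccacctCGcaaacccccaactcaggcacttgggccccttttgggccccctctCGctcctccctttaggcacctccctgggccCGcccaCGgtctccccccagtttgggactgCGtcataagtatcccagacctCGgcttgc
C2CD4C: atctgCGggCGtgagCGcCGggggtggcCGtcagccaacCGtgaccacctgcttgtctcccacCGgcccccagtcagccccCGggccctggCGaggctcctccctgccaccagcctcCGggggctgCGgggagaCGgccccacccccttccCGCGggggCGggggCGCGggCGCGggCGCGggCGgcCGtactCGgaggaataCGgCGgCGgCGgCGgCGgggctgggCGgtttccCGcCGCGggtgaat
AGR2: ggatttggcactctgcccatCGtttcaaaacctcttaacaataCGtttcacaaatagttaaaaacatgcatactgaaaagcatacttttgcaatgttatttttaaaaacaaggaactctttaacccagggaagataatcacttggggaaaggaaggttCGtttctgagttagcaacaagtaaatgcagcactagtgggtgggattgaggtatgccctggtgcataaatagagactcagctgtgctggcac
C2CD4C held 34 CG pairs in a window of 79.2% G and C, more than 93.2% of 35116 RefSeq promoter windows of this length. ITM2A held 11, the median of those windows, at 64% G and C. AGR2 held 3, the lower quartile, at 40.4% G and C. On both strands, 7 short motifs were searched. AGATAA, the core bound by GATA factors, was present once in the AGR2 window and is found in 9.17% of windows. These 3 windows held no TGACGTCA (the cAMP response element, in 1.65% of all windows), no TATAAA (the TATA box, in 10.7%) and no CCAAT (in 32%). They also held no GACTNGACT (an element that mouse MEL-18 is known to bind, in 0.407%), no TGANTCA (bound by AP-1, in 6.57%) and no TGTTTAC (bound by forkhead factors, in 2.98%).

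Library totals ran from 31643722 to 37005302 counts, and 18956 to 19636 genes were detected per library, apart from MEL-18 T334A replicate 1 with 20323. MEL-18 T334A replicate 3 differed most from the other libraries of its group, with chi-square values of 3.80 and 4.17 per degree of freedom, where the next highest within any group was 2.89. The overexpressed gene PCGF2 averaged 1420 ± 30.9 CPM in MEL-18 T334A, 1286 ± 6.55 CPM in MEL-18 WT, against 22.7 ± 0.878 CPM in the vector cells (SD, n = 3 each). CPM are counts scaled to a common library size by TMM, except that the sums over markers below use library totals alone. Scaling differences between the groups thus remain in those sums. Of the mesenchymal markers, VIM, CD44 and AXL were high in every group. Of the luminal and epithelial markers, ESR1, PGR and CDH1 had at most 15 counts over the 3 libraries of a group. The others were present, among them KRT8 at 304, 321 and 305 CPM in MEL-18 T334A, MEL-18 WT and vector cells. KRT18 averaged 254, 310 and 299 CPM in that order, and EPCAM 12.2, 10.1 and 7.47 CPM. The summed level of 10 luminal and epithelial markers was 772 to 796 CPM in MEL-18 T334A, 831 to 837 CPM in MEL-18 WT, against 747 to 782 CPM in vector libraries. That of 7 mesenchymal markers was 5365 to 5392, 5068 to 5155 and 5124 to 5173 CPM in the same order of groups, and that of 5 blood cell markers was at most 1.38 CPM in any library. The part of these shifts in the results was not tested.

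ITM2A, the BRICHOS protein, was nearly silent in vector cells and stood higher with either construct, most with MEL-18 WT. Its counts in replicates 1 to 3 were 49, 48 and 49 with MEL-18 T334A, 176, 170 and 168 with MEL-18 WT, and 9, 8 and 8 with the vector. In CPM these were 1.52, 1.36 and 1.38, then 4.92, 4.61 and 5.06, and 0.274, 0.238 and 0.255 in that order of groups. The groups formed 3 separate bands, with the mutant between the other groups and, in CPM, nearer to the vector. On the log2 scale the mutant was nearer to MEL-18 WT, at -1.78 from it and 2.45 from the vector. The fitted level (edgeR) was 5.48-fold above the vector with MEL-18 T334A and 18.8-fold above it with MEL-18 WT. The ratio of summed counts to the vector was 5.54 with MEL-18 T334A (exact 95% interval 3.61 to 8.84) and 19.0 with MEL-18 WT (12.7 to 29.6), where the intervals cover counting error only.

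GLB1L2, the beta-galactosidase relative, had the same order of groups. Its counts were 64, 84 and 98 with MEL-18 T334A, 181, 186 and 178 with MEL-18 WT, and 12 in each of the 3 vector libraries. The levels were 1.99, 2.38 and 2.76 CPM with MEL-18 T334A, 5.06, 5.05 and 5.36 CPM with MEL-18 WT, and 0.366, 0.357 and 0.382 CPM with the vector. The mutant libraries spread more than the others, and no library of one group reached another group. Relative to the vector the fitted level was 6.43-fold higher with MEL-18 T334A and 13.9-fold higher with MEL-18 WT.

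C2CD4C, the C2 domain protein, was the gene with its highest level in the mutant. It had 174, 189 and 174 counts with MEL-18 T334A, 109, 118 and 96 with MEL-18 WT, and 18, 31 and 15 with the vector. The levels were 5.40, 5.35 and 4.91 CPM with MEL-18 T334A, 3.05, 3.20 and 2.89 CPM with MEL-18 WT, and 0.549, 0.922 and 0.478 CPM with the vector. The constructs did not overlap, and vector replicate 2 stood above the other vector libraries. The fitted level was 7.93-fold above the vector with MEL-18 T334A and 4.64-fold above it with MEL-18 WT.

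SBK1, the kinase, differed least between the constructs among the 4 raised genes. It had 137, 146 and 127 counts with MEL-18 T334A, 181, 172 and 166 with MEL-18 WT, and 30, 47 and 32 with the vector. The levels were 4.25, 4.13 and 3.58 CPM with MEL-18 T334A, 5.06, 4.67 and 5.00 CPM with MEL-18 WT, and 0.915, 1.40 and 1.02 CPM with the vector. The highest mutant library lay just below the lowest wild-type library. The fitted level was 3.56-fold above the vector with MEL-18 T334A and 4.39-fold above it with MEL-18 WT.

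SUSD2, the sushi domain protein, was the more strongly reduced of the 2 lowered genes. It had 509, 532 and 459 counts with MEL-18 T334A, 344, 290 and 306 with MEL-18 WT, and 1410, 1434 and 1405 with the vector. The levels were 15.8, 15.0 and 12.9 CPM with MEL-18 T334A, 9.62, 7.87 and 9.21 CPM with MEL-18 WT, and 43.0, 42.6 and 44.8 CPM with the vector. The mutant again lay between the other groups. The fitted level was 2.98-fold below the vector with MEL-18 T334A and 4.89-fold below it with MEL-18 WT.

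AGR2, the disulfide isomerase, was lowered only slightly, against the description of these genes as strongly changed. It had 615, 664 and 612 counts with MEL-18 T334A, 543, 519 and 471 with MEL-18 WT, and 723, 775 and 775 with the vector. The levels were 19.1, 18.8 and 17.3 CPM with MEL-18 T334A, 15.2, 14.1 and 14.2 CPM with MEL-18 WT, and 22.1, 23.0 and 24.7 CPM with the vector. The groups were separate but close. The fitted level was 1.27-fold below the vector with MEL-18 T334A and 1.61-fold below it with MEL-18 WT.

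**Figure D1:**
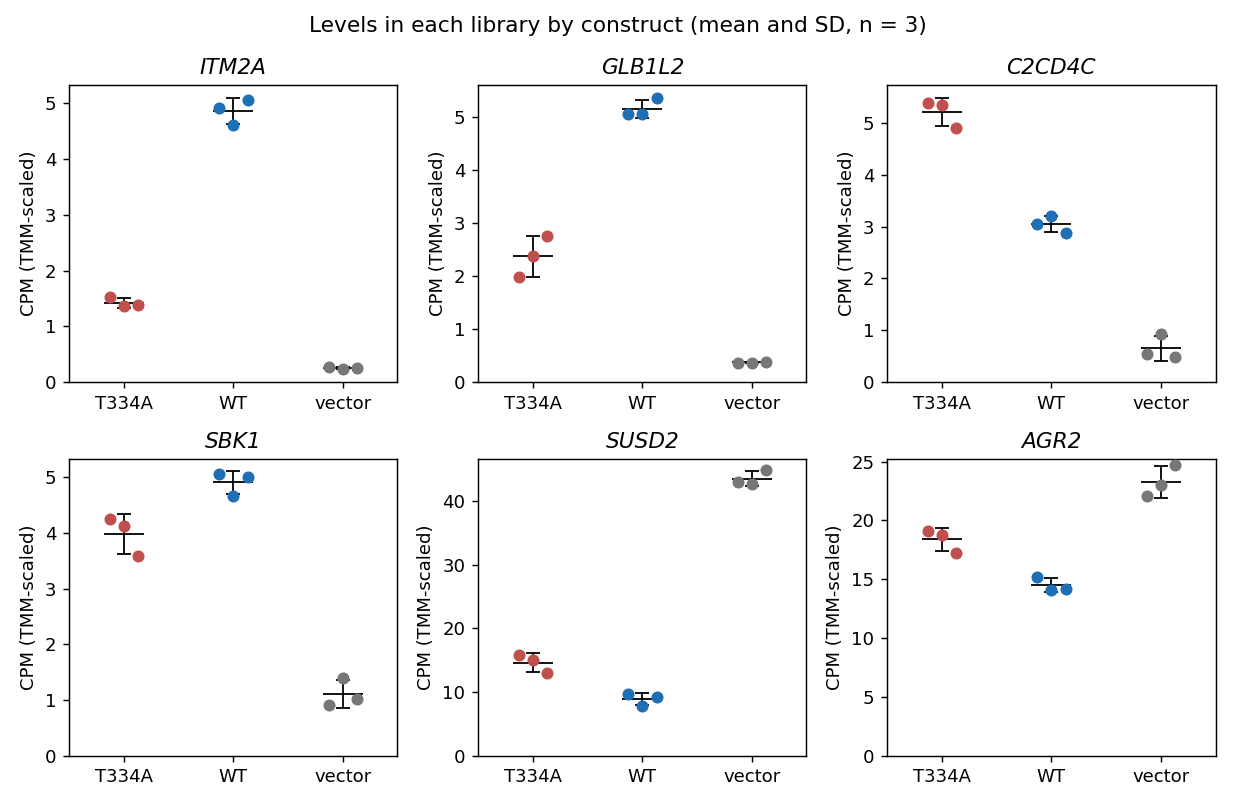
Level of each of the 6 genes in every library, as TMM-scaled CPM on linear axes from 0, with MEL-18 T334A, MEL-18 WT and the empty vector from left to right. Points are libraries and bars show the mean and SD (n = 3). For 5 genes the mutant lies between the other groups, and C2CD4C is highest in the mutant, at 5.22 ± 0.271 CPM against 3.05 ± 0.157 CPM in MEL-18 WT.

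On the log2 scale, the differences from the vector were 2.45 ± 0.24 with MEL-18 T334A and 4.23 ± 0.18 with MEL-18 WT for ITM2A (± SE of the edgeR fit). For GLB1L2 they were 2.68 ± 0.21 and 3.79 ± 0.18, for C2CD4C 2.99 ± 0.16 and 2.22 ± 0.18, and for SBK1 1.83 ± 0.15 and 2.13 ± 0.14, with the mutant given first. For SUSD2 they were -1.58 ± 0.06 and -2.29 ± 0.06, and for AGR2 -0.34 ± 0.05 and -0.68 ± 0.06. Each gene thus lay on the same side of the vector with both constructs, which share the vector libraries. Without vector replicate 2, the values for C2CD4C were 3.34 with MEL-18 T334A and 2.56 with MEL-18 WT.

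In the order of all 14738 tested genes by log2 fold change of MEL-18 WT over the vector, ITM2A was number 11 from the top, GLB1L2 15, C2CD4C 41 and SBK1 44. SUSD2 was number 16 from the bottom and AGR2 number 183. The rule gave no threshold, so the genes on either side in that order are shown: SBK1 at 2.13 stood between LINC00654 at 2.15 and LINC00937 at 2.13, and AGR2 at -0.68 between IL32 at -0.69 and ANKDD1B at -0.68. As background, 45.9% of all tested genes passed an edgeR adjusted p of 0.05 in MEL-18 T334A against the vector, and 28.8% in MEL-18 WT against it. The libraries of the groups did not overlap in 51.5% and 42.7% of tested genes in these comparisons.

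The direct comparison of MEL-18 T334A with MEL-18 WT asked whether levels differed between cells with the mutant and cells with the wild-type protein. ITM2A, GLB1L2 and SBK1 were lower in the mutant, and C2CD4C, SUSD2 and AGR2 were higher. All 6 genes were called, where 40.9% of all tested genes were called in this comparison and the libraries did not overlap in 48.7%. The comparison uses the MEL-18 WT libraries by which the genes were chosen. Apart from C2CD4C, the genes lay nearer to the vector in MEL-18 T334A than in MEL-18 WT, the direction that a choice for extreme MEL-18 WT values favours, and the p-values below do not allow for that choice. ITM2A fell by 1.78 ± 0.12 on the log2 scale (95% interval -2.03 to -1.52, edgeR quasi-likelihood test, adjusted p = 8.09e-12). GLB1L2 fell by 1.11 ± 0.11 (-1.35 to -0.87, edgeR adjusted p = 1.71e-08). C2CD4C rose by 0.77 ± 0.11 (0.54 to 1.0, edgeR adjusted p = 4.21e-06). SUSD2 rose by 0.71 ± 0.08 (0.56 to 0.87, edgeR adjusted p = 2.28e-08), and AGR2 by 0.34 ± 0.06 (0.22 to 0.46, edgeR adjusted p = 3.50e-05). SBK1 fell by 0.30 ± 0.11 (-0.52 to -0.08, edgeR adjusted p = 0.0245), and did not pass in DESeq2 (adjusted p = 0.0968). It also missed the threshold in edgeR fits that left out 1 library, with adjusted p = 0.107 when this was MEL-18 T334A replicate 3, 0.0760 for MEL-18 WT replicate 1 and 0.0687 for MEL-18 WT replicate 3. PCGF2 itself was higher in the mutant by 0.14 ± 0.03 (edgeR adjusted p = 0.000148), and the part of this dose difference in the results was not tested.

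**Figure D2:**
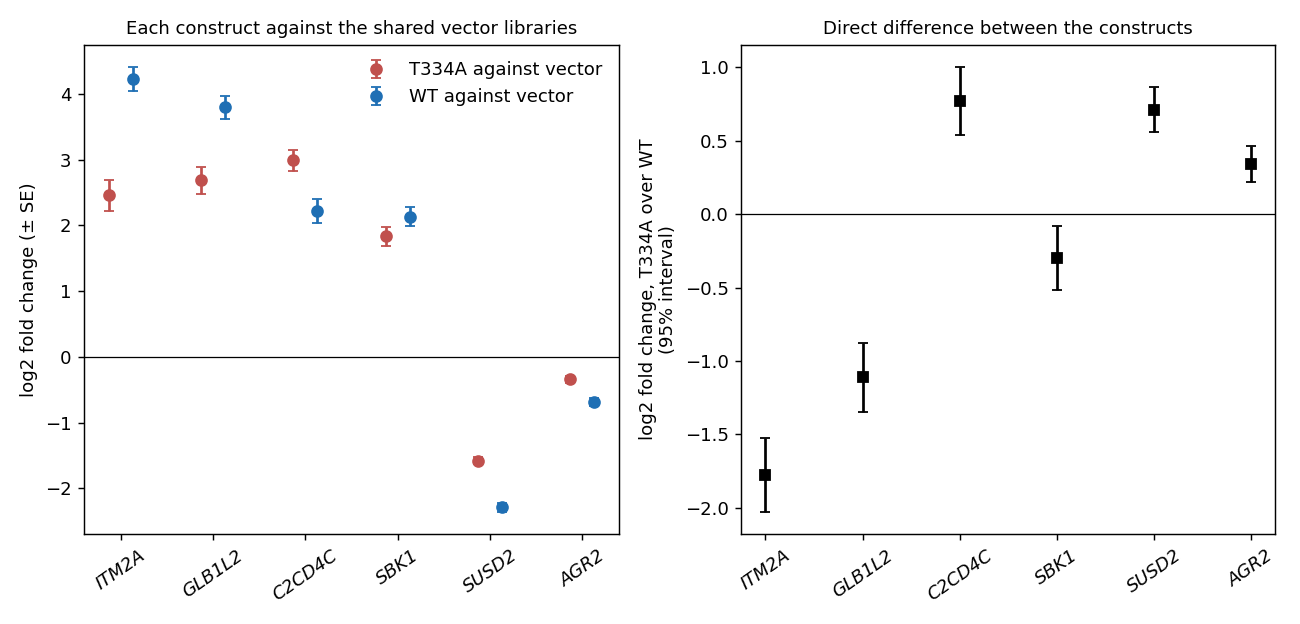
Log2 fold change of the 6 genes against the vector for MEL-18 T334A (left point of each pair) and MEL-18 WT, with SE bars, and at right the direct log2 fold change of MEL-18 T334A over MEL-18 WT with its 95% interval. The right panel runs from -1.78 for ITM2A to 0.77 for C2CD4C, and the interval of SBK1, -0.52 to -0.08, comes nearest to 0.

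The genes differed in the shape of their profiles over the 9 libraries. Likeness was the Euclidean distance between profiles of log2 CPM (prior count 2) less the vector mean, so that a small value means a similar pattern and size. Among the 6, ITM2A and GLB1L2 were closest, at 0.896, while C2CD4C and SBK1 were 2.01 apart. Outside them, 11399 genes were searched, each averaging 2 CPM or more. For C2CD4C the nearest were DUSP9, a MAP kinase phosphatase, at 0.822 and CNTNAP2, a neurexin family protein, at 0.931. DUSP9 averaged 5.44 ± 0.301 CPM in MEL-18 T334A, 3.52 ± 0.100 CPM in MEL-18 WT, against 0.857 ± 0.112 CPM in vector cells (SD, n = 3 each). The same genes were nearest to ITM2A, at 3.53 and 3.59, and to GLB1L2, at 2.88 and 2.92, distances above that between ITM2A and GLB1L2. SYT7, a calcium sensor of vesicle fusion, at 0.719 and CLMP, an adhesion molecule, at 1.02 were nearest to SBK1. S100A4, a calcium-binding protein, at 1.35 and FAM65C at 1.56 were nearest to SUSD2, though both were at lower mean levels in MEL-18 T334A than in MEL-18 WT, the opposite of SUSD2: S100A4 averaged 7.24 ± 1.32 CPM in MEL-18 T334A and 8.21 ± 0.809 CPM in MEL-18 WT, with overlapping libraries. Near AGR2 was PGF, placental growth factor, at 0.157. PGF averaged 34.0 ± 2.84 CPM in MEL-18 T334A, 27.7 ± 2.01 CPM in MEL-18 WT, against 42.8 ± 0.786 CPM in vector cells.

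The tested genes nearest on the chromosome, up to 10 on each side, were read from the same fit. Genes with too few counts to be tested were skipped, so that beside and next to mean the nearest tested gene. For ITM2A, GLB1L2, C2CD4C, SBK1 and SUSD2, the median log2 fold change of the neighbours lay between -0.10 and 0.09 in both comparisons with the vector. Of the 10 neighbours of GLB1L2, 5 rose and 1 fell in MEL-18 T334A, where 23.4% and 22.5% of all tested genes did. In MEL-18 WT 2 of them rose and 1 fell, where 14.4% of all tested genes did each way. Of the 20 neighbours of ITM2A, 8 fell and 0 rose in MEL-18 T334A against the vector, where 22.5% and 23.4% of all tested genes did. With MEL-18 WT, 3 of them rose and 2 fell, where 14.4% of all tested genes did each way. Between MEL-18 T334A and MEL-18 WT, 11 of them fell and 1 rose, where 20% and 21% of all genes did, with a median of -0.15, and ITM2A less that median stood at -1.62. The neighbours' median in this direct comparison was -0.01 for GLB1L2, 0.05 for C2CD4C, -0.08 for SBK1 and -0.01 for SUSD2. Less that median, SBK1 stood at -0.22. ITM2A on chromosome X has LPAR4, a lysophosphatidic acid receptor, as its nearest tested gene on one side. LPAR4 had 7, 4 and 2 counts with MEL-18 T334A, 33, 34 and 20 with MEL-18 WT, and 6, 2 and 5 with the vector. It rose in MEL-18 WT by 2.59 ± 0.38 over the vector (edgeR adjusted p = 5.39e-06), and differed by -0.07 ± 0.59 in MEL-18 T334A (edgeR adjusted p = 0.932). On its other side BRWD3, a bromodomain protein, fell in MEL-18 T334A by 0.18 ± 0.04 (edgeR adjusted p = 0.000382) and differed by 0.07 ± 0.04 in MEL-18 WT (edgeR adjusted p = 0.189). ACAD8, a mitochondrial acyl-CoA dehydrogenase beside GLB1L2 on chromosome 11, rose by 0.11 ± 0.04 in MEL-18 T334A and by 0.12 ± 0.04 in MEL-18 WT (edgeR adjusted p = 0.0311 and 0.0325). No tested gene lay on the other side of GLB1L2.

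Beside C2CD4C on chromosome 19, neither MIER2, at 0.03 ± 0.05 in MEL-18 T334A and 0.04 ± 0.05 in MEL-18 WT, nor TPGS1, at -0.14 ± 0.10 and -0.22 ± 0.10, was called against the vector. XPO6, a nuclear export receptor beside SBK1 on chromosome 16, fell in MEL-18 T334A by 0.12 ± 0.03 (edgeR adjusted p = 0.00316) and differed by 0.05 ± 0.03 in MEL-18 WT (edgeR adjusted p = 0.258). NPIPB6 on the other side of SBK1 belongs to a family of near-identical copies, and its values of -0.21 ± 0.39 in MEL-18 T334A and 0.05 ± 0.37 in MEL-18 WT are uncertain. NUPR1, a stress-induced nuclear protein 3 places from SBK1 that was singled out after its values were seen, had 32 counts with MEL-18 T334A, 95 with MEL-18 WT and 25 with the vector over 3 libraries each. Beside SUSD2 on chromosome 22, GGT5, a gamma-glutamyltransferase, fell by 0.53 ± 0.09 in MEL-18 T334A (edgeR adjusted p = 1.65e-05) and by 0.30 ± 0.08 in MEL-18 WT (edgeR adjusted p = 0.00733). CABIN1 on the other side of SUSD2 differed by 0.01 ± 0.03 and 0.02 ± 0.03 and was not called.

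Of the 20 neighbours of AGR2 on chromosome 7, 11 fell and 1 rose in MEL-18 WT, where 14.4% of all tested genes were called lower, and the median of the neighbours was -0.21. In MEL-18 T334A 2 fell and 1 rose, with a median of 0.04, where 22.5% of all genes were called lower. Less the neighbours' median, AGR2 stood at -0.38 in MEL-18 T334A and at -0.47 in MEL-18 WT. Between MEL-18 T334A and MEL-18 WT, 12 of the 20 rose and 1 fell, where 21% and 20% of all tested genes did, with a median of 0.20. The difference of AGR2 itself, 0.34, stood at 0.14 less that median. AHR, the aryl hydrocarbon receptor, was the nearest tested gene on one side of AGR2. AHR differed by 0.01 ± 0.04 in MEL-18 T334A (edgeR adjusted p = 0.835) and fell by 0.13 ± 0.04 in MEL-18 WT (edgeR adjusted p = 0.00507). TSPAN13, the nearest tested gene on the other side, was called in neither. TMEM196, named here after its values were seen, had 0 counts with MEL-18 T334A, 66 with MEL-18 WT and 0 with the vector over 3 libraries each.

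**Figure D3:**
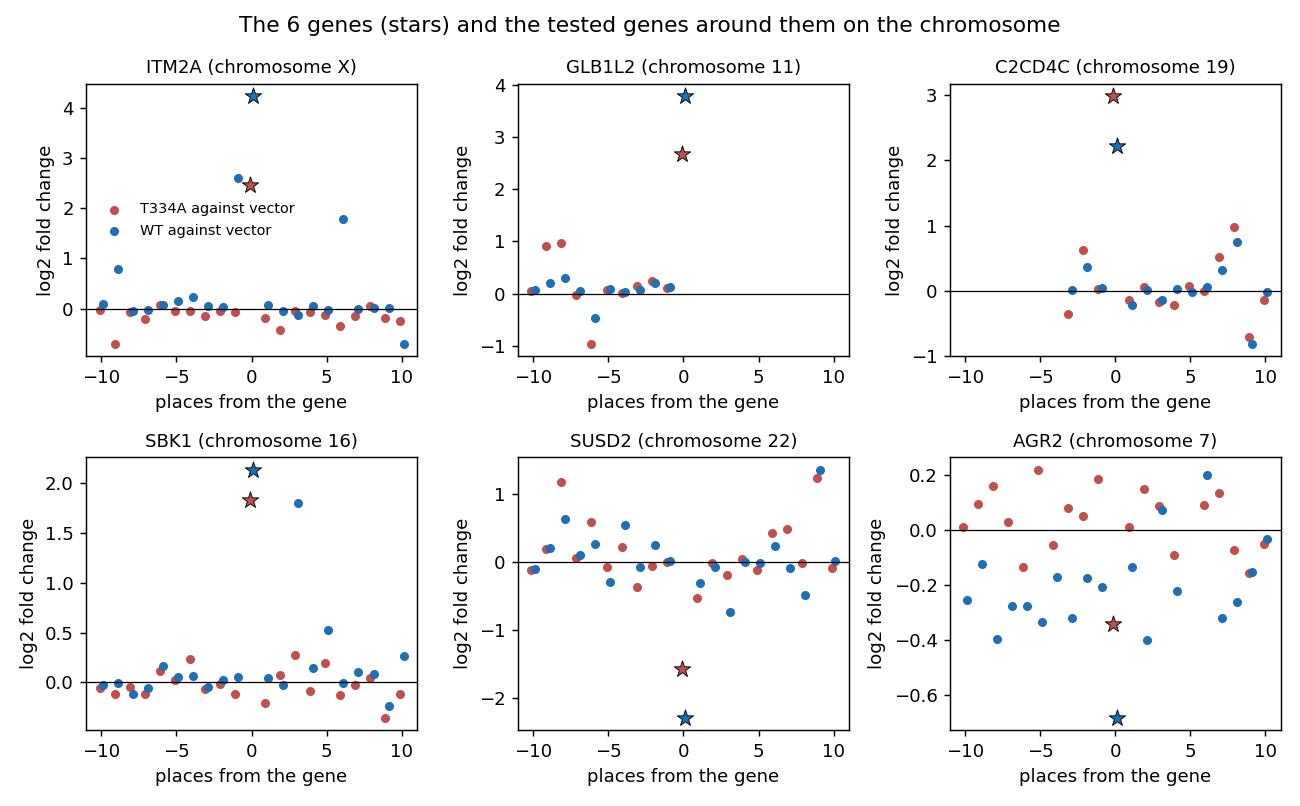
Log2 fold change over the vector in MEL-18 T334A (red) and MEL-18 WT (blue) for each of the 6 genes (stars) and the tested genes up to 10 places away on its chromosome, each panel with its own vertical range. TMEM196 near AGR2, with 0 counts in MEL-18 T334A and vector cells, is not drawn. The AGR2 panel shows most blue neighbours below 0, with a median of -0.21.

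A list of 17 relatives of the 6 genes was taken by family or by a shared name and domain. Of these, 11 had enough counts to be tested. Counts and medians over the list pool relatives of raised and of lowered genes. They therefore do not show whether relatives moved with their own gene. In MEL-18 T334A 6 rose and 2 fell against the vector, and in MEL-18 WT 5 rose and 2 fell, where 23.4% and 14.4% of all genes were called higher and 22.5% and 14.4% lower. Their median log2 fold change was 0.15 in MEL-18 T334A and 0.05 in MEL-18 WT, against -0.00220 and -0.00165 over all tested genes. Between MEL-18 T334A and MEL-18 WT, 3 rose and 2 fell, where 21% of all genes were called higher and 20% lower. Relatives of ITM2A changed little: ITM2B, which gives rise to an amyloid peptide in familial dementia, averaged 159 ± 2.91 CPM in MEL-18 T334A, 161 ± 2.55 CPM in MEL-18 WT, against 172 ± 1.84 CPM in vector cells, and fell by 0.11 ± 0.03 and 0.10 ± 0.03 (edgeR adjusted p = 0.00182 and 0.0103). ITM2C rose by 0.22 ± 0.03 in MEL-18 T334A (edgeR adjusted p = 4.83e-06) and differed by -0.02 ± 0.03 in MEL-18 WT. GLB1 itself rose by 0.10 ± 0.03 in MEL-18 T334A and 0.14 ± 0.03 in MEL-18 WT (edgeR adjusted p = 0.0146 and 0.00213), while GLB1L was not called. SBK3 differed by -0.31 ± 0.19 in MEL-18 T334A (edgeR adjusted p = 0.191) and fell by 0.80 ± 0.20 in MEL-18 WT (edgeR adjusted p = 0.00368), opposite to SBK1.

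Of the 5 other SUSD genes tested, listed with SUSD2 for their name and sushi domain, 4 rose with both constructs, opposite to SUSD2. SUSD5 averaged 116 ± 1.36 CPM in MEL-18 T334A, 105 ± 1.93 CPM in MEL-18 WT, against 83.7 ± 3.44 CPM in vector cells, and rose by 0.48 ± 0.03 and 0.33 ± 0.03 on the log2 scale (edgeR adjusted p = 4.38e-12 and 1.48e-08). SUSD4 rose by 0.96 ± 0.17 in MEL-18 T334A and 0.70 ± 0.18 in MEL-18 WT, SUSD1 by 0.37 ± 0.06 and 0.23 ± 0.06, and SUSD3 by 0.20 ± 0.07 and 0.45 ± 0.07 (the largest edgeR adjusted p of these was 0.0191). SUSD6 was not called. TXNDC12, a disulfide isomerase close to AGR2, fell by 0.18 ± 0.04 in MEL-18 T334A (edgeR adjusted p = 0.000349) and differed by -0.04 ± 0.04 in MEL-18 WT. The 6 listed relatives left untested had few counts over 3 libraries. C2CD4D had 32, 26 and 14 with MEL-18 T334A, MEL-18 WT and the vector. In the same order, C2CD4A had 24, 23 and 9, and SBK2 had 5, 12 and 7. GLB1L3, C2CD4B and AGR3 had at most 4 in any group.

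**Figure D4:**
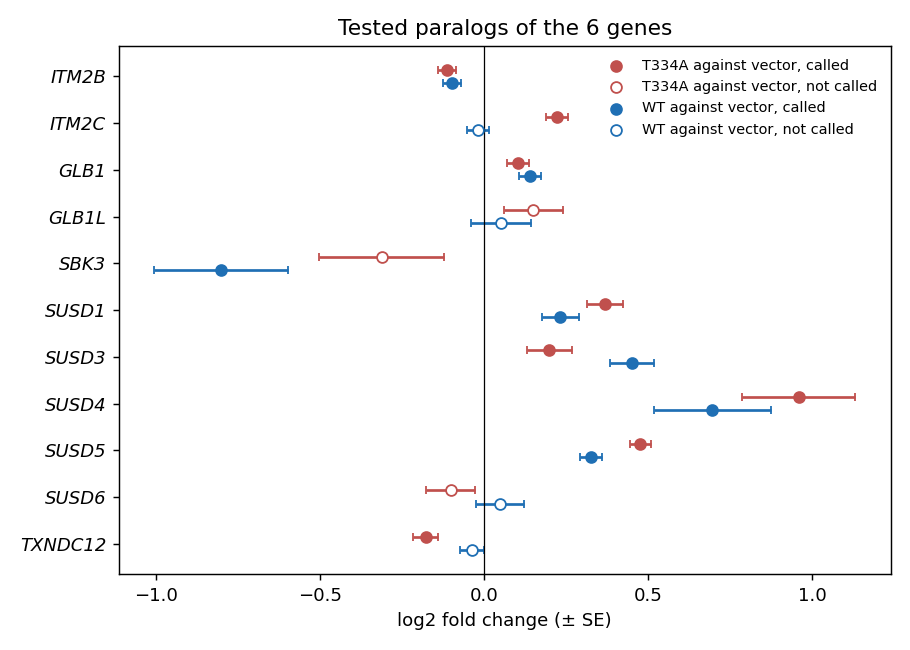
Log2 fold change (± SE) over the vector of the 11 tested relatives in MEL-18 T334A (upper point) and MEL-18 WT (lower point). Filled points mark genes called at an edgeR adjusted p below 0.05. SUSD1, SUSD3, SUSD4 and SUSD5 lie to the right of 0 with both constructs, and SBK3 lies to the left.

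Wider lists gave further setting. They repeat tested relatives given above, among them the SUSD genes, ITM2B, ITM2C, GLB1 and TXNDC12. SPDEF is in both the mucin list and the transcription factor list, so the counts of the lists are not independent. Of 16 tested sushi domain proteins and galectins, 12 rose and 1 fell in MEL-18 T334A, with a median of 0.16, and 7 rose and 3 fell in MEL-18 WT, with a median of 0.13, where 23.4% of all tested genes rose and 22.5% fell in MEL-18 T334A, and 14.4% each way in MEL-18 WT. CSMD3, a large sushi domain protein, averaged 3.57 ± 0.613 CPM in MEL-18 T334A, 0.634 ± 0.120 CPM in MEL-18 WT, against 0.647 ± 0.115 CPM in vector cells, and rose by 2.47 ± 0.18 in the mutant against the vector (edgeR adjusted p = 2.50e-11). LGALS1, the galectin-1 that binds SUSD2, rose by 0.16 ± 0.03 in MEL-18 T334A (edgeR adjusted p = 0.00042) and fell by 0.12 ± 0.03 in MEL-18 WT (edgeR adjusted p = 0.00802). LGALS3, galectin-3, rose by 0.48 ± 0.04 and 0.23 ± 0.04, and LGALS3BP, a secreted galectin ligand, fell by 0.13 ± 0.04 and 0.32 ± 0.04, with the mutant first.

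Of 10 tested genes of mucins and secretory epithelium, which include proteins that AGR2 helps to fold, 1 rose and 5 fell in MEL-18 T334A, with a median of -0.33, and 4 fell in MEL-18 WT, with a median of -0.17. Among all tested genes, 22.5% were called lower in MEL-18 T334A and 14.4% in MEL-18 WT. The gel-forming mucin MUC5AC averaged 55.7 ± 7.83 CPM in MEL-18 T334A, 92.2 ± 8.87 CPM in MEL-18 WT, against 105 ± 8.27 CPM in vector cells. It fell by 0.92 ± 0.07 and 0.19 ± 0.06 against the vector (edgeR adjusted p = 2.14e-11 and 0.0280), and MUC5B by 0.70 ± 0.06 and 0.20 ± 0.06, in MEL-18 T334A and MEL-18 WT. Both mucins were lower in MEL-18 T334A than in MEL-18 WT, by log2 fold changes of -0.73 ± 0.07 for MUC5AC and -0.50 ± 0.06 for MUC5B (edgeR adjusted p = 2.81e-09 and 1.89e-07), whereas AGR2 was higher. SPDEF, a transcription factor of secretory cells, fell by 0.40 ± 0.09 and 0.34 ± 0.09 against the vector. The trefoil peptide TFF3 averaged 0.349 ± 0.183 CPM in MEL-18 T334A, 0.485 ± 0.205 CPM in MEL-18 WT, against 0.899 ± 0.124 CPM in vector cells. Of 21 tested disulfide isomerases and folding factors, 3 rose and 10 fell in MEL-18 T334A, against 23.4% higher and 22.5% lower among all tested genes, and 2 rose and 4 fell in MEL-18 WT, against 14.4% each way. PDIA6 fell by 0.20 ± 0.03 and 0.14 ± 0.03, and ERO1B, an oxidase that recharges disulfide isomerases, rose by 0.38 ± 0.06 and 0.22 ± 0.06.

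Of 24 tested lysosomal glycosidases and partners, relatives of GLB1L2, 6 rose and 3 fell in MEL-18 T334A and 3 rose and 5 fell in MEL-18 WT, with medians of 0.02 and -0.03. The shares over all tested genes were 23.4% higher and 22.5% lower in MEL-18 T334A and 14.4% each way in MEL-18 WT, and the list's share of genes that rose in MEL-18 T334A was near that of all genes. IDS, the iduronate sulfatase, averaged 464 ± 5.53 CPM in MEL-18 T334A, 484 ± 7.06 CPM in MEL-18 WT, against 547 ± 5.42 CPM in vector cells, and fell by 0.24 ± 0.03 and 0.18 ± 0.03 (edgeR adjusted p = 4.05e-08 and 8.98e-06). Of 4 tested BRICHOS proteins, 1 rose and 1 fell in MEL-18 T334A, near the 23.4% and 22.5% of all tested genes, and 1 fell in MEL-18 WT, where 14.4% of all genes did. Of 4 tested C2CD proteins, C2CD2 differed by -0.05 ± 0.04 in MEL-18 T334A (edgeR adjusted p = 0.328) and rose by 0.13 ± 0.04 in MEL-18 WT (edgeR adjusted p = 0.0154), and the other three were called in neither comparison. Of 10 tested transcription factors known to act on some of the genes, 4 fell in MEL-18 T334A, where 22.5% of all tested genes did, and 1 rose and 3 fell in MEL-18 WT, where 14.4% of all genes did each way. KLF5 fell by 0.33 ± 0.04 and XBP1, a factor of the unfolded protein response, by 0.15 ± 0.03 in MEL-18 T334A (edgeR adjusted p = 1.02e-07 and 0.000586), and they differed by 0.01 ± 0.04 and 0.01 ± 0.03 in MEL-18 WT. GATA3 and CREB1 were called in none of the 3 comparisons.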

How the data were processed

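The authors deposited unnormalized read counts, whole numbers for each gene symbol. The submitters' processing notes name CASAVA 1.8, STAR 2.5.3a, Subread 1.5.3 with featureCounts, and the build hg19. Libraries were made from poly(A) RNA with a strand-specific TruSeq kit, per the labels' protocols. Which annotation was used, whether counting used the strand and what became of multiply mapped reads is not given in the sources used here, so that counts of overlapping, antisense and near-identical genes are uncertain. Genes were filtered with edgeR's filterByExpr (14738 of 26364 kept). All 9 libraries were fitted together with edgeR 4.0.16 in R 4.3.3 (TMM factors 0.979 to 1.02, quasi-likelihood F test, two-sided), with Benjamini-Hochberg adjustment over the 14738 genes, and genes with an adjusted p below 0.05 were called. SE is the log2 fold change divided by the square root of F. The fits were tested on simulated counts; the recovery required there was restricted to genes above 1 CPM after DESeq2 had fallen just short of it over all genes.

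The 6 genes and the lists were chosen with earlier results of these data known. By rule, the text could name the 6 genes, PCGF2, all paralogs, up to 4 called genes with the largest change per list and comparison, the tested genes next to each of the 6, and the 2 most similar profiles. Part of these is given, chosen after their values were seen, some genes that the rule took are not reported here, and genes named outside the rule are marked as such or are markers. Gene order on chromosomes came from RefSeq GRCh38.p14, used for order alone (14423 tested genes matched). Replicates of a group had chi-square values per degree of freedom between 1.52 and 4.17, and none was a copy of another. Alternatives were DESeq2 1.42.0, limma voom 3.58.1, RLE factors, library totals, 2 other filters, the compared groups alone, a replicate term and the removal of each library.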

Additional observations from a re-analysis of the deposited data

Results flagged for a closer look

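For each of the 6 genes, the level in MEL-18 T334A cells differed from that in MEL-18 WT cells in the edgeR fit. The comparison uses the MEL-18 WT libraries by which the genes were chosen, and its p-values do not allow for that choice. The constructs and their infected lines cannot be told apart. The log2 fold changes of MEL-18 T334A over MEL-18 WT were -1.78 for ITM2A (edgeR adjusted p = 8.09e-12), -1.11 for GLB1L2 (1.71e-08) and -0.30 for SBK1 (0.0245). SBK1 was not called by DESeq2 (adjusted p = 0.0968) or in edgeR fits without MEL-18 T334A replicate 3, MEL-18 WT replicate 1 or MEL-18 WT replicate 3 (adjusted p = 0.107, 0.0760 and 0.0687). The values were 0.77 for C2CD4C (edgeR adjusted p = 4.21e-06), 0.71 for SUSD2 (2.28e-08) and 0.34 for AGR2 (3.50e-05). In each gene all 3 MEL-18 T334A libraries lay on one side of all 3 MEL-18 WT libraries. Among all tested genes 40.9% were called in this comparison, so that a call by itself does not set these genes apart.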

How the results depend on the processing

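No value of the 6 genes changed direction in any alternative. With DESeq2 the SBK1 difference between MEL-18 T334A and MEL-18 WT was -0.30 (adjusted p = 0.0968), and the cause was not tested. Over the removal of single libraries it ran from -0.34 to -0.23 (highest edgeR adjusted p = 0.107), and fewer samples entered these fits. Over the same removals the difference ran from -1.82 to -1.74 for ITM2A, -1.23 to -1.0 for GLB1L2, 0.74 to 0.82 for C2CD4C, 0.63 to 0.79 for SUSD2 and 0.32 to 0.39 for AGR2, and all of these were called. Against the vector, C2CD4C ran from 2.82 to 3.34 in MEL-18 T334A and from 2.05 to 2.56 in MEL-18 WT, where vector replicate 2 decided the upper value. Between 5 and 6 of the 6 genes were called in every alternative.

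With a replicate block, 5757, 3963 and 6496 genes were called between MEL-18 T334A and MEL-18 WT, MEL-18 WT and the vector, and MEL-18 T334A and the vector, against 6034, 4242 and 6765 without it, and all 6 genes were called between the constructs. Same-numbered libraries had correlations of -0.0791 to 0.0138 in their deviations from the group means. Those of differently numbered libraries ran from -0.0732 to 0.101. No strong shared effect of the replicate number was thus seen. With 3 libraries per group, this cannot settle whether same-numbered cultures were prepared together. With library totals alone, 58.4%, 60.1% and 64% of calls in those comparisons were higher, against 51.2%, 50.1% and 51.1%. The 25 vector counts of ITM2A over 3 libraries limit its fold changes against the vector.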
